A study of Yarrowia lipolytica with 4 samples.

Results

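The transcriptome described here is that of the parent strain of the study, grown in rich medium, in the 6447 genes annotated as protein-coding. Yarrowia lipolytica is an ascomycete yeast that depends on respiration, grows on sugars as well as on fats and alkanes, secretes lipases and proteases, and is used to make lipids. In yeasts that divide in rich medium, a large share of messenger RNA is known to code for ribosomal proteins, translation factors and central metabolism. Genes for other foods, for mating and for sporulation are known to be low in such cultures.

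The study compared 2 strains of the laboratory strain PO1f. The parent carried a disruption of ku70, the gene of a DNA end-joining protein, written ku70Δ::tc in the labels, and the other strain carried in addition sur2Δ::LEU2, a deletion of the sphingoid base hydroxylase gene. Both had been grown in YPD, a medium of yeast extract, peptone and glucose, at 28 °C to an OD600 of 0.8, so the ku70 disruption is part of every value below. Poly(A)-selected, strand-marked libraries were made from total RNA with the TruSeq Stranded mRNA kit. Each strain had 2 libraries, and only the 2 parent libraries of the 4 were used; the labels do not say whether they came from separate cultures.

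The 2 parent libraries were deposited in separately made tables, one with a row per transcript and one with a row per gene, and are called the transcript-table library and the gene-table library. Paired values are given in that order throughout. The members were all protein-coding rows found in both tables, 6447 of 8381 shared features. The libraries held 16585818 and 13972149 counted reads, and protein-coding genes took 99.986% and 99.9852% of them. Levels are in TPM, transcripts per 1000000, a value per length that allows genes to be set beside each other within a library. With 1 library in each table there was no test of any difference, and differences between the libraries, their tables and their cultures cannot be told apart. The letter in a gene identifier names its chromosome, and the few coordinates printed were taken as deposited, on a genome build not given in the sources used here. Functions are those of the deposited annotation, which mostly names the nearest relative in another yeast or fungus.

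The strain label was set against its marker genes. SUR2 (YALI0_E17347g), deleted in the other strain, had 1402 and 1319 reads in the parent libraries, or 56.2 and 57.4 TPM. YALI0_C08701g, the relative of Saccharomyces cerevisiae HDF1 that codes for the Ku70 subunit, had 89 and 23 reads and stood at 1.97 and 0.55 TPM, on either side of the 1 TPM taken here as the threshold of detection. LEU2 (YALI0_C00407g, leucine synthesis), annotated over only 456 bases, had 207 and 376 TPM. The PO1f background is known to carry a mutant allele of it. The parent libraries thus held SUR2 messenger in both, and few reads over the disrupted ku70. Both strains of the study carry this disruption, so there was no level of the intact gene to set these reads against. The alkaline extracellular protease gene XPR2 was not analysed here.

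Most annotated genes were read. At least 1 TPM in both libraries was reached by 5568 genes, or 86.4%, at least 10 TPM by 4159, at least 100 TPM by 1082 and at least 1000 TPM by 153. Under 1 TPM in both were 637 genes, and 137 had no read in either library, a limit of 0.181 and 0.215 reads per 1000000 at 3 counts of each total, for counting error only. The median gene stood at 28.7 TPM in the transcript-table library and at 19.97 TPM in the gene-table library, and the mean of the libraries had a median of 24.7 TPM. The described gene nearest that median was YALI0_D02277g, a weak relative of the transketolase gene TKL1, at 38.7 and 10.6 TPM.

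A small set of genes carried much of the messenger pool. The 10 most abundant genes held 10.3% ± 0.637 of all protein-coding TPM and the 25 most abundant 20.6% ± 1.49 (SD, n = 2 libraries). The 100 most abundant held 49.4% ± 4.09 and the 500 most abundant 75.3% ± 3.24. Shares are of genes ranked by mean TPM, while each SD is of the shares with each library ranked on its own. To reach 50% of TPM took 103 genes in the mean of the libraries, 118 in the transcript-table library and 91 in the gene-table library. By reads, with no correction for length, it took 278 genes, 334 in the transcript-table library and 226 in the gene-table library. The gene-table library was the more concentrated of the pair on either scale.

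**Figure D1:**
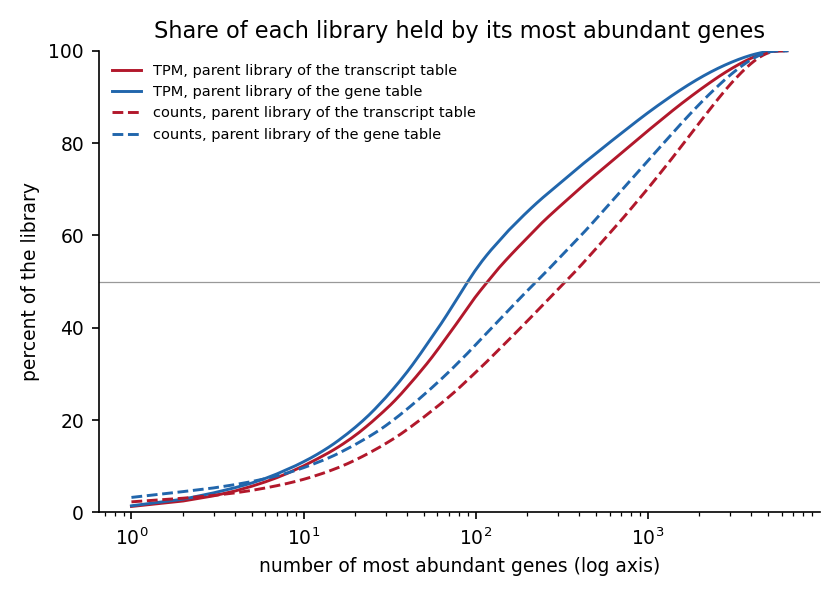
Cumulative percent of each parent library (vertical axis) against the number of most abundant genes on a log axis; solid lines are TPM, dashed lines are read counts, and the grey line marks 50%. The TPM lines cross it at 118 and 91 genes, the count lines at 334 and 226.

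The head of the list was made of ribosomal proteins, translation factors and a few respiratory genes. By reads per 1000000, 8 of the 25 most abundant genes stayed among the first 25, and 24 did so by the lower of both TPM values. The highest mean level belonged to YALI0_D13794g (chromosome D, 1710450 to 1711230), annotated as a small-subunit ribosomal protein like S. cerevisiae YJL136c, at 12921 and 13627 TPM. Elongation factor 1-alpha, YALI0_C09141g (chromosome C, 1242329 to 1243833), which brings charged tRNA to the ribosome, came next at 11110.4 and 14277 TPM and had the most reads of any gene, 380696 and 454139 reads. The large-subunit gene RPL43 (YALI0_E34573g) stood at 10432 and 14349 TPM. Relatives of both S. cerevisiae ubiquitin fusions, in which ubiquitin is made joined to a ribosomal protein, were near the top, the RPL40B relative YALI0_F08745g at 11864 and 11199.5 TPM and the RPS31 relative YALI0_F09790g at 7818 and 9983 TPM. These 5 genes ranked 1 to 4 and 8 of 6447, and no 2 of them differed by more than 2-fold in either library.

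At rank 5 by mean level stood a gene without a described function, YALI0_E14212g, whose relative is a predicted protein of Neurospora crassa, at 8708 and 9653 TPM from 55233 and 52063 reads. Its level differed little between the libraries beside its size, and it was the highest of the 4 genes among the 100 most abundant that had no described function. A further pair of those 4, YALI0_F05676g at 6003 and 7389 TPM and YALI0_F06160g at 2929 and 3711 TPM, is annotated only by the S. cerevisiae names YML063w and YOR369c, which code for small-subunit ribosomal proteins in that yeast. The remaining one was YALI0_B22125g, like YLR262c-a, at 1775 and 5168 TPM from 890 and 1422 reads. YALI0_F06160g and YALI0_B22125g were named after their values were seen.

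Ribosomal proteins filled most of the other places among the 25. The large-subunit relatives were RPL18B (YALI0_F24123g, 9516 and 8479 TPM), the YDL136w relative YALI0_A09922g at 10249.7 and 7607 TPM, the YFR032ca relative YALI0_F08437g at 6067 and 10053 TPM and RPL37A (YALI0_E01452g, 9094 and 6961 TPM). They went on with RPL32 (YALI0_E30811g, 7318 and 7768 TPM), the YPL079w relative YALI0_F05522g at 6005 and 7505 TPM, RPL23B (YALI0_D10263g, 6267 and 6978 TPM) and the L15 gene YALI0_D24387g at 6496 and 6575 TPM. The YIL018w relative YALI0_F24739g had 5611 and 6761 TPM, RPL42A (YALI0_B04224g) had 5639.9 and 6474 TPM and RPL39 (YALI0_D05697g) had 5765 and 5982 TPM. Small-subunit members included the S17 gene YALI0_F14465g at 7750.1 and 7961 TPM and the YLR333c relative YALI0_C03872g at 6006 and 7502 TPM. None of these differed by 2-fold between the libraries, and 10 of these 13 were higher in the gene-table library. Of all 168 genes with a mean of at least 1000 TPM, which include these 13, 97.0% lay within 2-fold. The median log2 ratio of those 168, gene table over transcript table, was 0.15. Neither point therefore sets these 13 apart from genes of such abundance.

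The other places among the 25 belonged to mitochondrial and growth-related genes. The ADP/ATP carrier (YALI0_A10659g), which exchanges ATP made in mitochondria for cytosolic ADP, had 6383 and 9403 TPM and was second by reads with 130985 and 176797 reads. Cytochrome c (YALI0_D09273g, like CYC1), the mobile electron carrier of respiration, had 6517 and 6101 TPM. YALI0_F09229g, like the nucleoside diphosphate kinase gene YNK1, had 6939 and 8437 TPM, and the eIF5A gene YALI0_C06886g, like ANB1, had 5309.6 and 6417 TPM. Of these 4, the carrier differed most between the libraries, with a log2 ratio of 0.56 on the log2(TPM + 1) scale, gene table over transcript table.

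Of the 100 most abundant genes, 12 stood in none of the annotated lists described next, and these were looked at after their values were seen. They included 3 with relatives known for stress or the cell surface in S. cerevisiae or fission yeast. The DDR2 relative YALI0_D07535g had 4789 and 2759 TPM, the relative of the surface glycoprotein SED1, YALI0_E07832g, had 3825 and 3222 TPM, and the UPF0057 family gene YALI0_D16665g had 2969.8 and 2066 TPM, the last from only 735 and 250 reads. Cyclophilin (YALI0_C10230g), which helps proteins fold, had 2695 and 2426 TPM. YALI0_F08393g, whose relative YPL037c codes in S. cerevisiae for a subunit of the complex that binds new chains at the ribosome, had 2172 and 2759 TPM.

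Annotated functions were then described by 30 lists of genes drawn from the annotation text, which held 939 genes, 7 of them in more than one list. Together they held 61.3% ± 3.58 of TPM. A list is described by its median and by how its members lie against the median of all genes, 24.7 TPM. Of the 30 lists, 21 had a median above that of all genes, and the 100 most abundant genes held 88 members of some list.

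**Figure D2:**
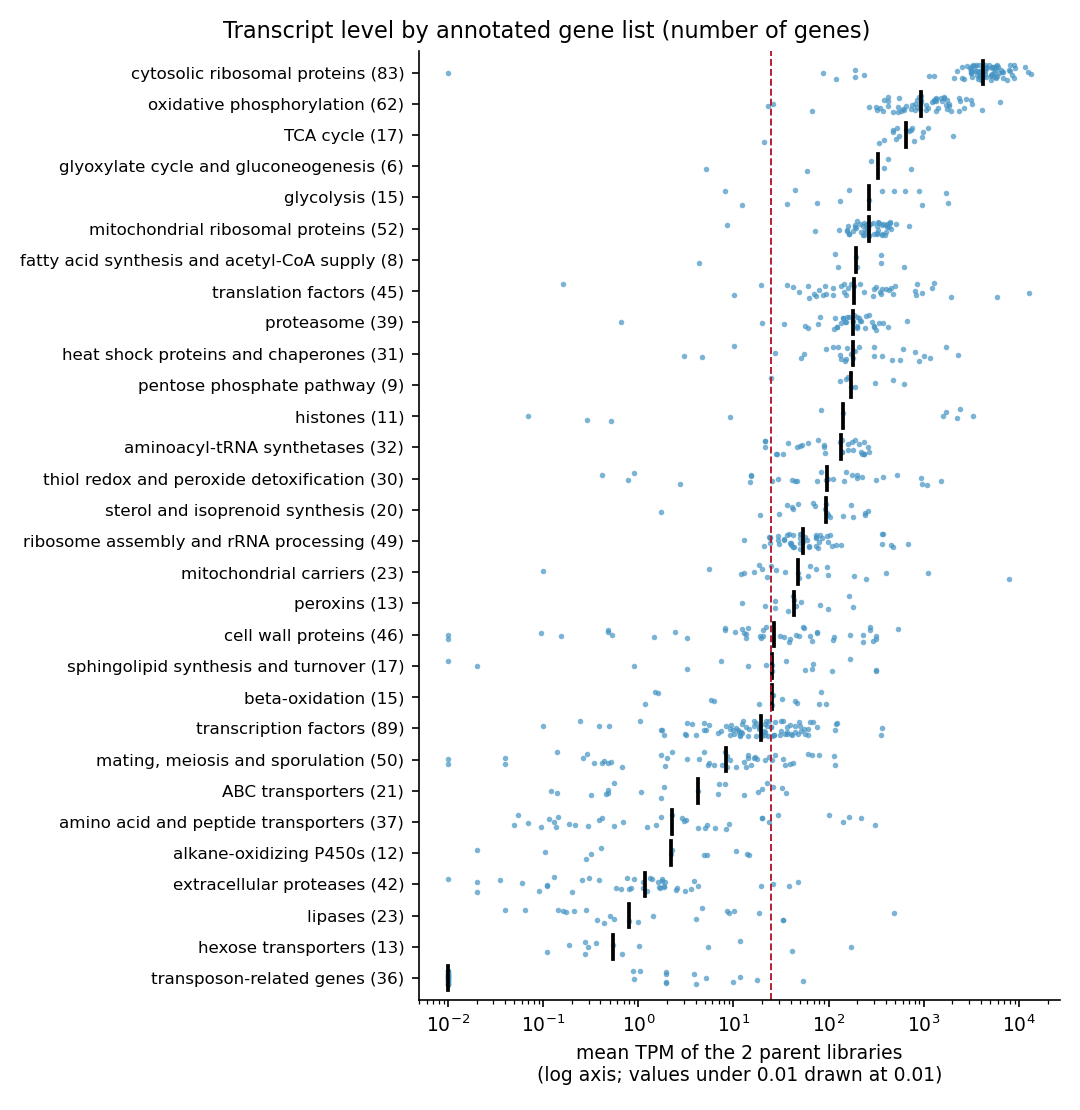
Mean TPM of both parent libraries (log axis) for each member of the 30 annotated lists, 1 point a gene; black bars are list medians, the dashed line is the median of all protein-coding genes, and values under 0.01 are drawn at 0.01. Cytosolic ribosomal proteins lie highest with a median of 4223 TPM, and transposon-related genes lowest with a median of 0.

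Translation was the largest consumer of messenger. The 83 genes annotated as cytosolic ribosomal proteins held 36.2% and 41.1% of TPM, had medians of 3921 and 4569 TPM and filled 73 of the first 100 places. By reads, with no correction for length, they held 18.4%. Of the 83, 77 had a mean of at least 1000 TPM. The 6 below it were chosen for mention after their values were seen. The RPS22 relative YALI0_F25399g stood at 58.96 and 115 TPM and the RPL38 relative YALI0_B11308g at 217 and 258 TPM. YALI0_F30011g, like an S25 protein of N. crassa, stood at 109 and 129.6 TPM. YALI0_B09779g and YALI0_D08470g, at 177 and 198 TPM and 188 and 192 TPM, are annotated only by similarity to YLR009w and YJR113C. Annotation words placed them in the list, and whether they code for cytosolic ribosomal proteins was not examined. The list also leaves out YALI0_F05676g and YALI0_F06160g, named above, so its count and shares are those that the annotation words give. The RPL41B relative YALI0_A09933g, annotated over 78 bases, had 0 reads in both.

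The machinery around the ribosome was also above the middle of the genes, but far below the ribosomal proteins. The 45 translation factors had medians of 173 and 201 TPM, and 42 of them were above the median of all genes. After EF-1-alpha and eIF5A, the eEF1-beta gene EFB1 (YALI0_F09669g), the exchange factor of EF-1-alpha, had 1670.5 and 2236 TPM. Of the pair of genes annotated as highly similar to elongation factor eEF2, which moves the ribosome along, YALI0_A00352g, named after its values were seen, had 1099.7 and 1317 TPM while YALI0_A20152g had 18 and 3 reads, or 0.27 and 0.050 TPM. Nearly all eEF2-like reads were thus assigned to one of the pair.

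The 32 aminoacyl-tRNA synthetases, which load amino acids onto tRNA, lay in a narrow band from 21.6 to 265 TPM. FRS2 for phenylalanine (YALI0_D16643g) had 252 and 278 TPM, KRS1 for lysine (YALI0_F16291g) had 266 and 255 TPM and THS1 for threonine (YALI0_F11231g) had 239 and 236 TPM. The 49 genes of ribosome assembly and rRNA processing were lower, with medians of 47.4 and 56.8 TPM, and 43 of them were above the median of all genes. The 3 highest code for core proteins of box C/D snoRNPs, which modify ribosomal RNA: fibrillarin NOP1 (YALI0_C15873g) at 604 and 778 TPM, NOP58 (YALI0_B00946g) at 493 and 454 TPM and SIK1 (YALI0_D17116g) at 445 and 469 TPM.

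Mitochondria took the next share. The 62 genes of oxidative phosphorylation held 8.05% and 7.69% of TPM, or 4.17% of reads, with medians of 980.1 and 903 TPM, 59 of them at 100 TPM or more. After cytochrome c, the highest were small subunits: ATP18 of the ATP synthase (YALI0_D17490g) at 4891 and 3284 TPM and QCR9 of the cytochrome bc1 complex (YALI0_B01540g) at 2959.9 and 3523 TPM. Both rest on short transcripts, with 2043 and 730 reads for the former and 2213 and 1552 reads for the latter.

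The 52 mitochondrial ribosomal proteins had medians of 251 and 279 TPM, far under the cytosolic ones. MRP10 (YALI0_F09768g) had 744 and 664 TPM, the L7/L12 relative YALI0_F17556g had 538 and 481 TPM and the YCR046c relative YALI0_F24365g had 437 and 469 TPM. By reads over counted length, scaled as described below, MRP10 was the lowest of these at 281, with YALI0_F17556g at 497 and YALI0_F24365g at 476. The 23 mitochondrial carriers, which move metabolites across the inner membrane, were spread from 0.10 to 7893 TPM. Behind the ADP/ATP carrier came a relative of the phosphate carriers (YALI0_F14223g) at 868 and 1345 TPM and of the 2-oxodicarboxylate carrier ODC1 (YALI0_D02629g) at 410.0 and 393 TPM. A further gene annotated as ADP/ATP carrier, YALI0_F19712g, had 1 and 3 reads, so 1 of these carrier genes held nearly all reads assigned to the pair.

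Carbon metabolism was well read, the TCA cycle above glycolysis by median. The 17 TCA cycle genes had medians of 658 and 610 TPM and the 15 glycolysis genes of 264 and 273 TPM. Mitochondrial malate dehydrogenase (YALI0_D16753g) had 1985 and 2091 TPM, the isocitrate dehydrogenase subunit IDH1 (YALI0_E05137g) 1034 and 1160.0 TPM and dihydrolipoamide dehydrogenase LPD1 (YALI0_D20768g) 978 and 989 TPM. In glycolysis, glyceraldehyde-3-phosphate dehydrogenase (YALI0_C06369g) had 1448 and 2171 TPM, enolase (YALI0_F16819g) 1887 and 1567 TPM and triose-phosphate isomerase (YALI0_F05214g) 874 and 1042 TPM. The libraries gave the first pair of these in opposite order.

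The 9 pentose phosphate genes, which supply NADPH and ribose, had medians of 194 and 153 TPM. GND1 (YALI0_B15598g, 6-phosphogluconate dehydrogenase) stood at 552 and 699 TPM, TAL1 (YALI0_F15587g, transaldolase) at 439 and 508 TPM and TKL1 (YALI0_E06479g, transketolase) at 299.7 and 322 TPM. Although the medium holds glucose, genes of the glyoxylate cycle and gluconeogenesis were read too, with medians of 330.5 and 330.4 TPM over 6 genes. Phosphoenolpyruvate carboxykinase PCK1 (YALI0_C16995g), the entry step of gluconeogenesis, had 899 and 562 TPM, the acetyl-CoA synthetase ACS2 (YALI0_F05962g) 406 and 434 TPM and fructose-1,6-bisphosphatase (YALI0_A15972g) 373 and 391 TPM. PCK1 lay below glyceraldehyde-3-phosphate dehydrogenase in both libraries.

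Among the lists of lipid metabolism, fatty acid synthesis had the highest median. The list of 8 genes, which includes acetyl-CoA supply, had medians of 195 and 195 TPM, close together in the libraries. The delta-9 desaturase (YALI0_C05951g), which makes monounsaturated fatty acids, had 699 and 556 TPM. Both subunits of ATP citrate lyase, the enzyme that makes cytosolic acetyl-CoA in oleaginous yeasts, followed, YALI0_D24431g at 354 and 358 TPM and YALI0_E34793g at 298 and 412 TPM. The subunits differed by less than 1.5-fold in either library.

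The 20 sterol and isoprenoid genes had medians of 81.5 and 86.4 TPM, led by ERG2 (YALI0_E32065g) at 221 and 294 TPM, ERG6 (YALI0_F08701g) at 224 and 256 TPM and farnesyl diphosphate synthase ERG20 (YALI0_E05753g) at 257 and 219.9 TPM. The 17 genes of sphingolipid synthesis and turnover were near the median of all genes, at 32.8 and 29.2 TPM. ORM1 (YALI0_B18150g), a regulator of the first step in S. cerevisiae, had 386 and 251 TPM, the GNS1 elongase relative YALI0_B20196g had 275 and 353 TPM and the ceramide synthase relative LAC1 (YALI0_F06424g) had 194 and 143 TPM. The acid sphingomyelinase relative YALI0_C00979g was nearly unread, with 2 and 0 reads.

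Beta-oxidation lay near the median of all genes and peroxins above it. The 15 beta-oxidation genes, 9 of them above it, had medians of 36.01 and 15.2 TPM, with no mean above 100 TPM; in the gene-table library alone the list lay under the median of all genes, 19.97 TPM. The dienoyl-CoA reductase SPS19 (YALI0_C03003g) had 105 and 82.4 TPM, the multifunctional enzyme of the pathway (YALI0_E15378g) 101 and 64.9 TPM and acyl-CoA oxidase POX3 (YALI0_D24750g) 109 and 47.6 TPM. The 13 peroxins, which build peroxisomes, the site of this pathway, had 11 members above it and medians of 55.1 and 32.1 TPM; the PMP30 relative YALI0_C04092g had 178 and 179 TPM, YALI0_B22660g 206 and 122 TPM and PEX14 (YALI0_E09405g) 119.6 and 76.4 TPM. In all of these but YALI0_C04092g the gene-table library was the lower one, as it was for the typical gene. Over the 4567 genes with a mean of at least 10 TPM the median log2 ratio, gene table over transcript table, was -0.34.

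The alkane-oxidizing cytochromes P450 and the lipases were low. Of the 12 alkane-oxidizing cytochromes P450, which start alkane breakdown, none reached the median of all genes, and 5 were under 1 TPM in both libraries. The highest was YALI0_E23474g at 22.4 and 6.88 TPM, followed by ALK1 (YALI0_E25982g) at 18.8 and 8.65 TPM and ALK4 (YALI0_B13816g) at 12.9 and 8.59 TPM. ALK8 (YALI0_C12122g) had 2 and 0 reads. Among 23 lipases only 3 exceeded the median of all genes and 10 were under 1 TPM in both. A single member, the triacylglycerol lipase precursor YALI0_A20350g, stood apart at 499 and 482 TPM. The next were a relative of hormone-sensitive lipase (YALI0_E17655g) at 43.2 and 23.4 TPM and YALI0_B09361g at 19.4 and 46.5 TPM, while the lipase 1 precursor YALI0_E10659g had 6 and 14 reads. The highest lipase therefore had over 10 times the level of any other.

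Secreted and surface proteins fell into a low and a middle group. The 42 extracellular proteases had medians of 1.33 and 0.64 TPM, with 16 under 1 TPM in both. Yapsin-like aspartyl proteases led them, YALI0_E10175g at 58.4 and 35.9 TPM and YALI0_E22374g at 38.8 and 12.99 TPM, with the secreted aspartic protease relative YALI0_D10835g between at 54.9 and 21.2 TPM. The longest member under 1 TPM in both, the alkaline protease relative YALI0_C15532g, had 3 and 0 reads. The 46 cell wall genes had medians of 36.4 and 17.5 TPM. The exoglucanase relative YALI0_B03564g had 610.0 and 456 TPM, YlCWP1 (YALI0_E22286g) 338 and 296 TPM and the glucan-remodelling GAS1 (YALI0_D06039g) 389.9 and 238 TPM; the endoglucanase relative YALI0_A07142g had 5 and 6 reads.

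The medians of the transporter families were low, and each had a few members far above its median. At least 1 TPM in both libraries was reached by 4 of 13 hexose transporters, 18 of 37 amino acid and peptide transporters and 12 of 21 ABC transporters. The 13 hexose transporters had medians of 0.67 and 0.50 TPM and 8 were under 1 TPM in both. One, the relative of a high-affinity glucose transporter of Kluyveromyces lactis (YALI0_E23287g), had 243 and 99.8 TPM; the SNF3-like gene YALI0_C06424g, a glucose sensor in S. cerevisiae, had 47.6 and 35.5 TPM, and YALI0_B21230g had 15.1 and 8.6 TPM. The longest one under 1 TPM in both, YALI0_F25553g, had 8 and 2 reads. So a single gene carried most of the TPM of the 13 genes in this list, which was drawn from annotation words.

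The 37 amino acid and peptide transporters had medians of 2.23 and 1.23 TPM, with 15 under 1 TPM in both. The peptide transporter PTR2 (YALI0_D19558g) had 432 and 176 TPM, the amino acid permease YALI0_B09537g 339.6 and 103 TPM and the general permease relative GAP1 (YALI0_B16522g) 261 and 63.6 TPM. Each of the 3 was more than 2-fold lower in the gene-table library. Of all genes with a mean of at least 10 TPM, 12.4% were at least 2-fold lower there. The OPT2 relative YALI0_B07898g had 3 and 5 reads. The 21 ABC transporters, pumps driven by ATP, had medians of 6 and 2.5 TPM; ATM1 of mitochondria (YALI0_E08030g) had 39.5 and 32.2 TPM, the peroxisomal pair PXA1 (YALI0_A06655g) and PXA2 (YALI0_D04246g) had 46.5 and 17.5 TPM and 33.4 and 19.2 TPM, and YALI0_B12980g had 0.54 and 0.56 TPM.

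Protein folding, turnover and redox genes were well read. The 39 proteasome genes had medians of 198 and 165 TPM, 37 of them above the median of all genes. SEM1 of the lid (YALI0_C22528g) had 806 and 529.5 TPM, and the core subunits PRE9 (YALI0_C19382g) and PUP2 (YALI0_E02794g) had 466 and 376 TPM and 382 and 360.4 TPM. The SEM1 level rested on 839 and 346 reads, with only 35.9 and 23.8 bases behind its TPM. By reads over counted length, scaled as described below, SEM1 stood at 145, PRE9 at 519 and PUP2 at 460, so its lead held on the TPM scale only. The member under 1 TPM, YALI0_D15092g, is annotated by a Yippee-like protein of Arabidopsis and had 2 and 3 reads. The 31 heat shock proteins and chaperones had medians of 196 and 171 TPM, led by the mitochondrial HSP10 (YALI0_B05610g) at 2283 and 2245 TPM, the ribosome-bound HSP70 SSB2 (YALI0_A00132g) at 1579 and 1842 TPM and the mitochondrial HSP70 SSC1 (YALI0_C17347g) at 1183 and 1156 TPM. By reads over counted length HSP10 was the lowest of these leaders, at 1284, with SSB2 at 2610 and SSC1 at 1792. The leaders are chaperones of ribosomes and mitochondria in S. cerevisiae.

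The 30 genes of thiol redox and peroxide detoxification had medians of 100.3 and 93.5 TPM. Thioredoxin TRX2 (YALI0_F01496g) had 1687 and 1353 TPM, the peroxiredoxin TSA1 (YALI0_B15125g) 1071 and 1115 TPM and copper-zinc superoxide dismutase SOD1 (YALI0_E12133g) 1099 and 833 TPM, while the ascorbate peroxidase relative YALI0_D25366g had 9 and 7 reads. All 3 leaders ranked far above the list's median in both libraries.

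Nuclear genes ranged from abundant histones to transcription factors and mating genes of lower level. Of the 11 genes annotated as histones, 5 were above 1000 TPM and 3 under 1 TPM in both. A pair of histone H4 genes, YALI0_F25883g and YALI0_C11385g, had 3423 and 3218 TPM and 2624 and 1858 TPM, and an H2A gene (YALI0_E26477g) 2117 and 2697 TPM; near-identical copies can share reads, so the split between them is uncertain. YALI0_A11781g, annotated by its likeness to H4 at one end only, had 40 and 13 reads. The 89 transcription factors had medians of 25.6 and 12.3 TPM. GCN4 (YALI0_E27742g), the activator of amino acid synthesis genes in S. cerevisiae, was the highest at 446 and 282 TPM. Next came the MHR1 relative YALI0_E17369g at 420.4 and 292 TPM. That gene is in the list through its annotation as a direct transcriptional repressor, and where its protein acts was not examined. The repressor YALI0_A14542g followed at 137 and 106 TPM, and the activator relative YALI0_D14872g had 25 and 14 reads. Of the 89 regulators, 65 had a mean of at least 10 TPM and 5 of at least 100 TPM.

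The 50 genes of mating, meiosis and sporulation had medians of 11.5 and 5.21 TPM, with 12 under 1 TPM in both. YALI0_C06842g, like YMR043W, a general regulator in S. cerevisiae, had 138 and 93.5 TPM, the protease STE24 (YALI0_F11033g) 133 and 96.95 TPM and the rec14 relative YALI0_C20339g 90.8 and 67.4 TPM. The pheromone exporter relative STE6 (YALI0_E05973g) had 15 and 14 reads. Both genes of the B mating type, YALI0_C07458g and YALI0_C07480g, were among those with 0 reads in both libraries and were picked after their values were seen; PO1f is known as a strain of the A mating type.

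Mobile elements closed the list. Of 36 transposon-related genes, 22 had no read in either library, and their median was 0. All 10 of the longest described genes without reads were LTR-retrotransposon genes of 7866 bases, YALI0_A08932g, YALI0_A09317g, YALI0_A10395g, YALI0_B06303g, YALI0_B06446g, YALI0_D21846g, YALI0_E09350g, YALI0_E13376g, YALI0_E34606g and YALI0_E34980g. All 5 genes of 3537 bases were without reads as well, while all 9 of 3903 bases had reads, from 121 to 8441 in the transcript-table library. The reverse transcriptase gene YALI0_C03498g had 78.6 and 27.8 TPM, the Mutyl relative YALI0_C17193g 22.97 and 12.3 TPM and the transposase relative YALI0_E02178g 15.4 and 7.85 TPM. Near-identical copies share reads, and how such reads were counted is not given in the sources used here, so 0 reads in a copy says only that none was assigned to it.

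Among all 137 genes without reads, 60 had no similarity to a known protein and a further 19 were also marked as possibly noncoding. Described ones numbered 50, of which 28 were outside the transposon-related list. The 137 had a median span of 321 bases, and 60 were shorter than 300 bases. Annotation went with level over all genes: the 3770 described genes had a median of 34.6 TPM, the 1644 related only to proteins without a described function 23.2 TPM, the 962 without similarity 9.82 TPM and the 71 possibly noncoding ones 0.665 TPM. Under 1 TPM in both libraries were 7.48%, 6.81%, 21.3% and 53.5% of these classes.

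The rank order was shared by the libraries, over a wide range. Spearman's rho of TPM over the 6447 genes was 0.964 and Pearson's r of log2(TPM + 1) was 0.969; both are descriptions across genes, which share a library and are not independent replicates. Within the 100 most abundant genes rho was 0.842. The libraries shared 7 of their first 10 genes, 21 of 25, 93 of 100 and 451 of 500. Their read counts had a chi-square of 139.98 per degree of freedom, so they were not within counting noise of each other; this does not tell whether the cultures were separate.

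**Figure D3:**
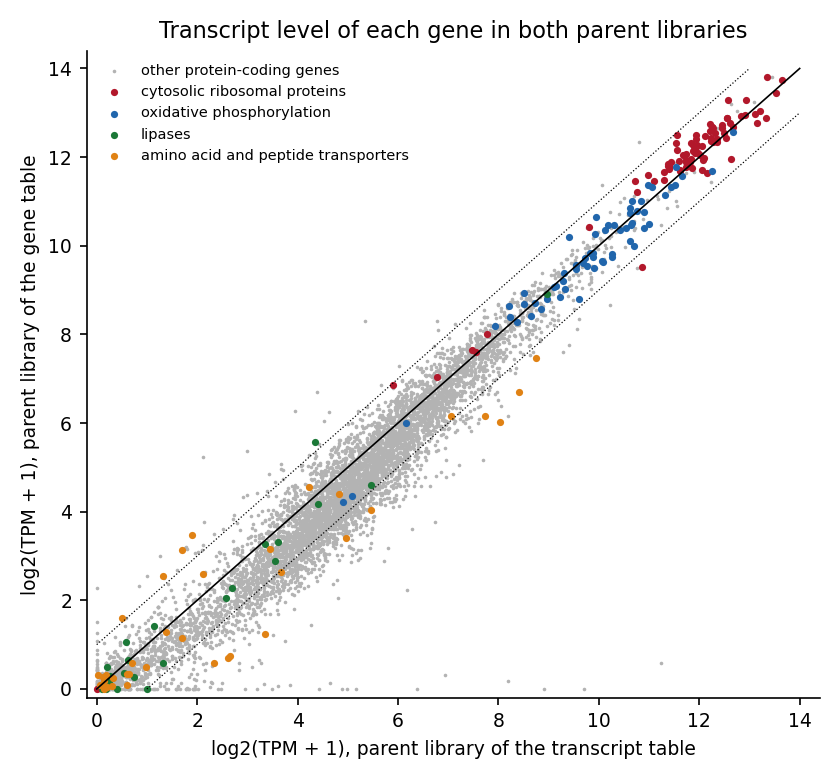
Level of each protein-coding gene as log2(TPM + 1) in the transcript-table library (horizontal) and the gene-table library (vertical); the solid line marks equality, the dotted lines 2-fold, and 4 annotated lists are coloured. Ribosomal proteins lie at the upper end, most of them above the line, while amino acid and peptide transporters of high level lie below it.

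The typical gene stood lower in the gene-table library. Over the 4567 genes with a mean of at least 10 TPM, the median log2 ratio of TPM + 1, gene table over transcript table, was -0.34, and differences between functions are read relative to it. Within 2-fold lay 3970 of these genes, or 86.9%, and after centring on the median 93.1%. In the gene-table library 29 genes were at least 2-fold higher, a background of 0.635%, and in the transcript-table library 568 genes, a background of 12.4%. After centring these became 108 genes, or 2.36%, and 209 genes, or 4.58%. A gene high in 1 library alone passes the limit on the mean.

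The ratio moved with abundance and with length. It had a median of -0.54 at 1 to 3 TPM and -0.67, the lowest, at 3 to 10. From there it rose to -0.57 at 10 to 30, -0.33 at 30 to 100 and -0.10 at 100 to 300. It was -0.05 at 300 to 1000 and 0.15 at 1000 TPM and above. The spread of the ratio over genes, as a robust SD, was 0.54 at 10 to 30 TPM and 0.34 at 1000 and above, where counting error alone gives 0.083 and 0.013. By transcript length the median went from -0.12 under 300 bases to -0.64 at 3000 bases and above. Abundance and length go together in these libraries. The length behind TPM also differs between the tables, with origins of 201 and 224 bases, as described below. The parts of these in the ratio were not tested.

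**Figure D4:**
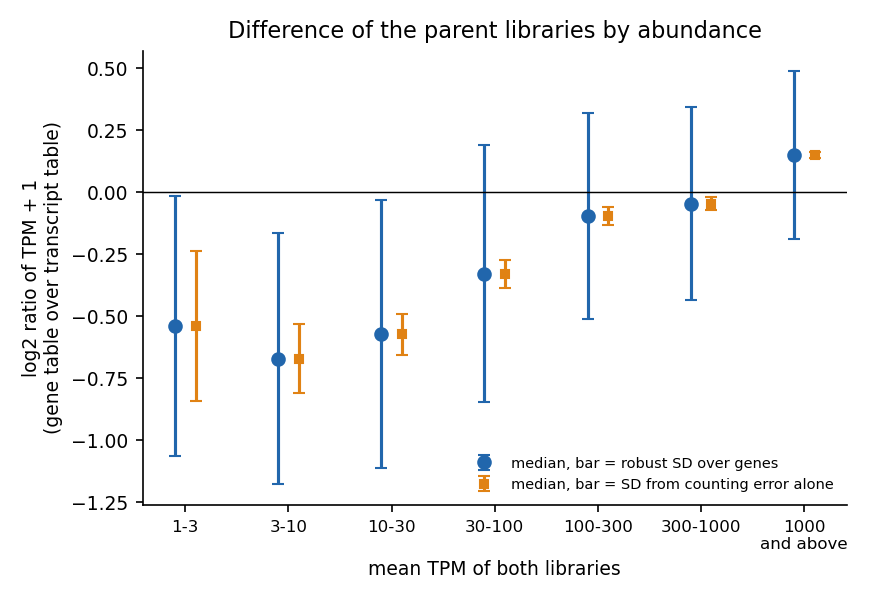
Median log2 ratio of TPM + 1 between the parent libraries (gene table over transcript table) by mean TPM; blue bars are the robust SD over genes and orange bars the SD that counting error alone gives. The median is -0.54 at 1 to 3 TPM and runs from -0.67 at 3 to 10 TPM to 0.15 at 1000 and above. The blue bars are the longer ones in every class.

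The lists differed in this ratio, those of translation lying highest. The median log2 ratio was 0.24 for cytosolic ribosomal proteins, 0.24 for translation factors, 0.27 for ribosome assembly and 0.18 for mitochondrial ribosomal proteins, against -0.35 for all genes. It was -0.84 for transcription factors, -0.77 for cell wall genes, -0.76 for peroxins and -0.63 for beta-oxidation. The median level was 53.5 TPM for ribosome assembly and 43.6 TPM for peroxins. Both medians lie in the class of 30 to 100 TPM, whose median ratio was -0.33. Members ran from 12.8 to 691 TPM and from 12.3 to 178 TPM, so each list spans several classes. The parts of abundance and length in the list differences were not tested.

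Members at least 2-fold higher in the transcript-table library were 23 of 65 transcription factors with a mean of at least 10 TPM, 11 of 34 cell wall genes, 5 of 13 peroxins, 5 of 10 beta-oxidation genes and 6 of 9 amino acid and peptide transporters, against the background of 12.4%. After centring they were 9, 5, 1, 0 and 5 of these, against 4.58%, so of these 5 lists only the transporters, the transcription factors and the cell wall genes stayed above the share of all genes by more than 2-fold. Of 82 cytosolic ribosomal proteins it was 1, of 62 oxidative phosphorylation genes 0, and of 49 ribosome assembly genes 0. At least 2-fold higher in the gene-table library were 0 of these ribosomal proteins and 1 of the ribosome assembly genes, against 0.635%, and after centring 5 and 7, against 2.36%.

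Some genes differed well beyond the general shift. Among described genes with a mean of at least 10 TPM, the largest ratios toward the transcript-table library were the metallothionein gene MTP4 (YALI0_C18481g), 6 and 0 reads, the Emericella regulatory protein relative YALI0_F21923g, 916 and 43 reads, and the STB3 relative YALI0_C09232g, 2053 and 236 reads. The myo-inositol transporter relative YALI0_F18084g had 1388 and 153 reads and the CHA4 relative YALI0_C15202g had 3733 and 511 reads. Their log2 ratios were -5.17, -3.94, -2.84, -2.74 and -2.63. The first rests on 6 reads in all. The others had at least 916 reads in the transcript-table library.

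Toward the gene-table library, under the same limit, the largest was mitochondrial manganese superoxide dismutase SOD2 (YALI0_C16621g), which removes superoxide from the matrix, with 485 and 3434 reads or 39.9 and 315 TPM. YALI0_F29975g, a weak relative of an oxoacyl reductase, had 113 and 602 reads, the old yellow enzyme relative OYE2 (YALI0_B06413g) 653 and 1900 reads and the riboflavin synthesis gene RIB7 (YALI0_D06501g) 354 and 947 reads. YALI0_C22719g had 3 and 7 reads, again a small number of reads. The log2 ratios were 2.95, 2.39, 1.61, 1.52 and 2.32. All of these but YALI0_C22719g had at least 602 reads in the gene-table library, whose total was the smaller one.

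Level also went with length. Genes of 300 to 600 bases had a median of 61.1 TPM, those of 600 to 1000 bases 39.5 TPM, those of 1500 to 2000 bases 19.6 TPM and those of 3000 bases or more 10.6 TPM. Of the 100 most abundant genes, 16 were under 300 bases, 60 from 300 to 600 and 1 over 1500. Genes under 300 bases had a median of 21.3 TPM, and 36.6% of them were under 1 TPM in both libraries. Reads were also divided by the counted length estimated below, or by the span where none was estimated, and scaled to 1000000. The first 100 genes then held 3 of under 300 bases and 3 of 1500 to 2000. The median of genes under 300 bases was then 4.93. It was 53.0 for 300 to 600 bases, 48.5 for 600 to 1000, 29.3 for 1500 to 2000 and 16.9 for 3000 or more. The fall with length above 300 bases was thus smaller on this scale than in TPM.

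TPM of short transcripts rested on few bases. In either table the deposited reads per TPM rose in a straight line with annotated length over most genes. The origin was 201 bases in the transcript table and 224 bases in the gene table. For genes on the line, the length behind TPM was thus the counted length less about that many bases. The shortest genes can depart from it. YALI0_B08748g, chosen after its values were seen, spans 171 bases, under both origins, yet had 7.59 and 3.85 bases behind its TPM. The line was fitted over 4931 and 4443 genes with at least 200 reads and 5 TPM, of which 82.9% and 82.8% lay within 20 bases of it. The RPL39 gene YALI0_D05697g shows the effect, with only 652 and 290 reads. It ranked 24 by mean TPM, 4011 by reads per 1000000 and 1175 by reads over its estimated counted length. YALI0_F08437g, with 2534 and 2235 reads, ranked 10, 1217 and 225 on those scales. So near the origins of the line, the estimated length and the last rank of each are uncertain. In all, 27 genes with an estimated counted length had on average fewer than 50 bases behind their TPM, 20 of them in both libraries.

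**Figure D5:**
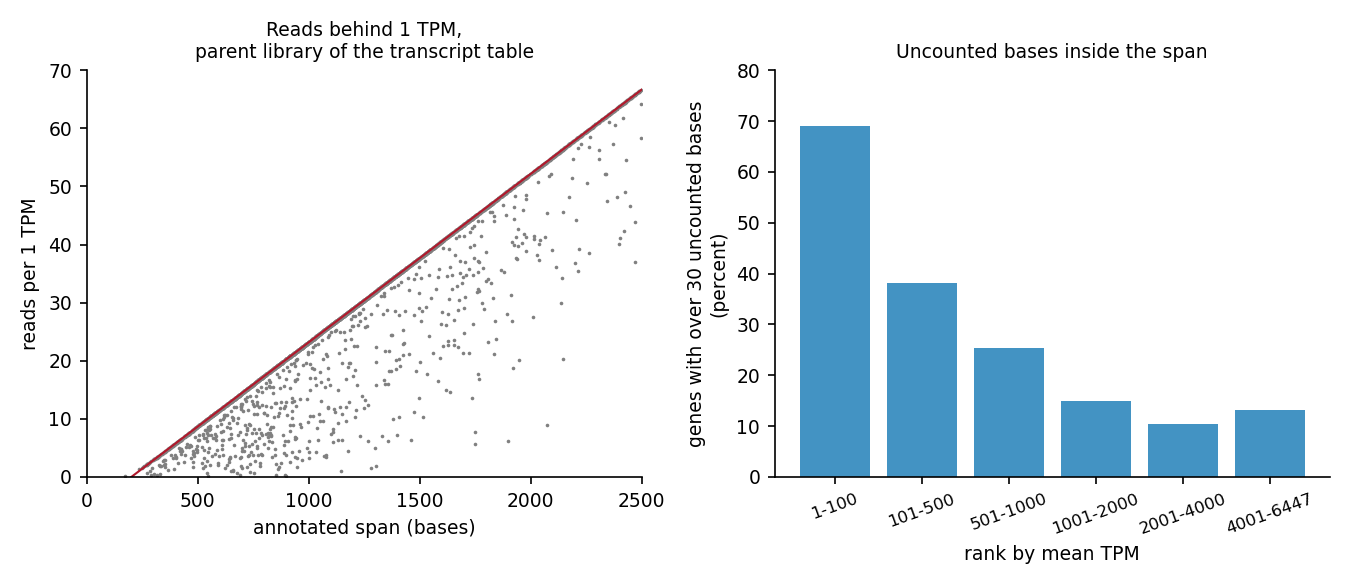
Left, reads per 1 TPM against annotated span in bases for genes of the transcript-table library up to 2500 bases, with the fitted line that starts at 201 bases; points under the line have fewer counted bases than their span. Right, percent of genes with over 30 uncounted bases by rank of mean TPM, from 69% at ranks 1 to 100 to 13.1% at ranks 4001 to 6447.

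The same line gave an estimate of each gene's counted length, less certain for the shortest transcripts. From it followed the bases within the span that were not counted, as annotated introns would be. Of 4422 genes with enough reads in both libraries, 764 (17.3%) had more than 30 uncounted bases, and none had 10 to 30. Such genes were common at the top: 69.0% of the first 100, 38.1% of ranks 101 to 500, 25.4% of ranks 501 to 1000 and 10.5% of ranks 2001 to 4000. Their median level was 96.8 TPM, against 39.9 TPM for the 3658 others. Among genes with an estimated counted length, cytosolic ribosomal proteins had such bases in 53 of 80. Oxidative phosphorylation had such bases in 41 of 62 and the TCA cycle in 10 of 17. Ribosome assembly had them in 2 of 47 and aminoacyl-tRNA synthetases in 2 of 32. Outside the cytosolic ribosomal proteins the share was 16.4% over all genes and 39.95% within the first 500. The fit needs enough reads, so low genes are judged from the 633 of 2447 that had them.

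Genes on chromosome A were lower than elsewhere. Its 687 genes had a median of 15.2 TPM, 19.0 and 10.7 TPM in the libraries, while the other 5 chromosomes had medians from 22.5 to 28.7 TPM. Under 1 TPM in both libraries were 20.7% of its genes and 6.91% to 12.4% of those of the other chromosomes. Within annotation classes, 15.4% of described genes on A were under 1 TPM in both and 6.63% on the others. For genes without similarity the shares were 36.8% and 18.4%, and for relatives of proteins without a described function 12.96% and 6.14%. Of 158 windows of 40 neighbouring genes, the lowest was on chromosome A from 1183677 to 1329463, with 47.5% under 1 TPM in both, and 7 of the 8 windows at 25% or more were on A, which holds 17 of the 158. The 60 genes in the outermost 5 places of the chromosome ends had a median of 17.3 TPM. Neighbouring genes are not independent replicates, so these are descriptions without a test.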

How the data were processed

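Poly(A) RNA libraries of Yarrowia lipolytica PO1f ku70Δ::tc were prepared with Illumina's stranded TruSeq chemistry, per the labels' protocols. Read counts were used as the authors deposited them. TPM values (transcripts per 1000000) had been computed by the authors, per the file headers, and sum to 1000000 over each table. Not given in the sources used here: aligner, counter, build, use of strand, treatment of reads matching several genes. The columns name the strain but no replicate number. The tables also hold 4 columns of RPKM values, which were not used.

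The tables were joined by gene identifier in Python 3.11.15 with pandas 2.3.3, NumPy 2.4.6 and SciPy 1.17.1, and protein-coding rows kept. Ratios are differences of log2(TPM + 1), for genes of mean TPM of at least 10 where stated. A gene counted as detected at 1 TPM. Scaling factors (TMM, 1.10 and 0.906) and the common dispersion of the libraries (0.0886 over 5797 genes with at least 10 reads) came from edgeR 4.0.16 in R 4.3.3. The dispersion and length fits were tested on simulated data. Counting limits use 3 reads of each total and cover counting error only.

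No test was run, since 1 group is described. The members and the 30 lists were chosen with earlier results of these data known, and 2 lists (mitochondrial carriers, transposon-related genes) were added after the tables were opened. Lists come from annotation words. Genes named are the 25 most abundant, the 3 highest and the longest undetected of each list, the 5 described genes of largest ratio each way, the 10 longest described genes without reads, the strain markers and the described gene at the median; 1 of the 25 is not reported here; others were chosen after their values were seen and are marked so. Alternatives changed the unit, threshold, pseudocount, scaling and library; the level without the length offset was added after seeing the data.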

Additional observations from a re-analysis of the deposited data

Results flagged for a closer look

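Reads outside the protein-coding genes were few. The 1934 other features held 2325 reads in the transcript-table library and 2065 in the gene-table library, or 0.0140% and 0.0148% of all counted reads, and 34 of them had a read. They were looked at because they lie outside the measurement described and stand above the limit that a count of 0 allows. The largest part was on 46 snoRNA genes, with 1127 and 841 reads. The 12 ncRNA genes held 481 and 379 reads, the 4 genes of the signal recognition particle RNA 438 and 361, and the RNase MRP RNA 136 and 201. The 1520 tRNA genes had 0 reads in both libraries, and 337 rRNA genes had 126 and 205. Poly(A) selection was part of the library kit, and its part in these values was not tested.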

How the results depend on the processing

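No paired analysis was possible because 1 strain is described and the columns carry no replicate number. With 2 libraries, leaving one out leaves the other alone: genes without reads were then 170 to 233 in place of 137, and the share of the first 10 genes 10.1% to 10.98%. At most 3 reads in both gave 272 genes. Spearman's rho was 0.961 by CPM (reads per 1000000), 0.952 at a mean of at least 1 TPM and 0.924 at 10, and Pearson's r was 0.962 with a pseudocount of 0.1, 0.971 with 5 and 0.959 at 1 TPM or more. The share within 2-fold was 93.1% centred, 92.8% by TMM-scaled CPM, 85.4% with a pseudocount of 0.1, 84.1% at 1 TPM, 94.0% at 50 TPM and 88.6% without the length offset. By CPM the first 10, 25, 100 and 500 genes held 8.36%, 14.9%, 33.1% and 60.1%, 278 genes held 50%, 8 of the 25 most abundant stayed and the lists summed to 46.8%. Without the offset these shares were 9.43%, 18.4%, 43.7% and 69.2%, and the lists summed to 56.1%. The cause was not tested beyond what each scale leaves out. Lists above the median of all genes numbered 19 to 21. Beta-oxidation fell below it in the gene-table library alone, by CPM and without the offset, cell wall proteins in the gene-table library alone and by phrase matching, and sphingolipid genes by phrase matching, while transcription factors rose above it by CPM. The ratio of the lipase, extracellular protease, hexose and amino acid transporter lists, relative to all genes, turned from positive to negative with a pseudocount of 0.1 and by TMM. Over members of at least 10 TPM only, it turned to -1.08 for amino acid and peptide transporters, -0.73 for extracellular proteases, -0.56 for transposon-related genes and -0.41 for hexose transporters. Of 447 values of named genes under alternatives, 358 moved by less than the spread between libraries. Each library alone lies within that spread of the mean by construction, so those values say nothing about stability. All 89 values that moved further came from the level without the length offset.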

Other observations

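A few genes were read in one library and nearly absent from the other; they were chosen after their values were seen. At least 100 reads in the transcript-table library and at most 2 in the gene-table library were found in 14 genes, and the reverse in 0. The most read was YALI0_B23496g (chromosome B, 3059312 to 3059677), annotated as without similarity and possibly noncoding, with 11586 and 2 reads, or 2421 and 0.51 TPM. YALI0_A06633g had 2468 and 1 reads, YALI0_C13002g 1712 and 0 reads and YALI0_A21351g 1696 and 0 reads. Of the 14, 8 have no similarity to a known protein, and none overlaps another annotated feature. Reads in one library only were found in 96 genes of the transcript-table library, with up to 1712 reads, and in 33 of the gene-table library, with up to 10.

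Described genes without reads outside the mobile elements included 6 annotated as metallothioneins, small metal-binding proteins, of which 5 span 159 to 168 bases, and relatives of the S. cerevisiae GABA permease, YALI0_F01078g and YALI0_A07579g. These too were picked after their values were seen, and near-identical copies within such families can share reads.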
